A study of Mus musculus with 8 samples.

Results

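Immediate early genes are the first genes that a T cell transcribes after its antigen receptor is engaged, from transcription factors that are already present and without new protein synthesis. The set described here held 9 of them, namely Nr4a1, Egr2, Egr3, Fos, Atf3, Jdp2, Maff, Ier5 and Myc. They were taken by gene symbol from the platform annotation, all 9 were found, each with 1 probe set, and they were 9 of the 6986 genes tested. They were compared in CD4+CD25+ lymphocytes, the fraction in which regulatory T cells (Treg) are concentrated, and their variation from array to array was described.

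Cells were sorted by flow cytometry out of uterine draining (para-aortic) lymph nodes taken on day 9.5 of pregnancy. One group comprised 4 arrays labelled Il10-/-, from mutants crossed back to the C57BL/6 colony that lack a functional gene for interleukin 10, and the second comprised 4 arrays labelled Il10+/+, from C57BL/6 mice. Each array held RNA pooled from 2 to 4 mice, so each replicate is a separate pool and a value is an average over animals. The Il10-/- mice drank oxytetracycline at 2 mg/ml to prevent colitis and the labels give no antibiotic for Il10+/+, so drug and genotype cannot be told apart. The allele is carried by every cell of the mutant, and the labels do not name the disrupted part of the gene.

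The values are log2 expression from Affymetrix Mouse Gene 2.0 ST arrays. Array medians lay between 6.97 and 7.12. Among them, Il10-/- replicate 2 and Il10+/+ replicate 4 had the narrowest spread of values, with interquartile ranges of 2.15 and 2.17 against 2.32 to 2.58 in the others. They also stood together at one end of the first principal component. Il10 itself read 8.65 to 9.42 in the arrays labelled Il10-/- and 7.50 to 8.51 in those labelled Il10+/+, so it was not low in the mutant arrays. A probe set that reads outside the disrupted part does not check a label, and all directions below rest on the labels. Of the genes listed as T cell and Treg markers, Ctla4 read 10.88 to 11.49 and Ikzf2 11.19 to 11.75 over the 8 arrays. Ptprc, which other white blood cells also express, read 12.48 to 12.74. Foxp3, Il2ra, Cd4 and Cd3e were not analysed here.

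Early response genes carry short control sequences just before their start sites. Serum response factor binds the CArG box, CREB and its relatives bind the cyclic AMP response element (CRE), and the EGR proteins bind a GC-rich site. Receptor signals reach these genes through the MAP kinases and through calcium, and calcineurin with NFAT contributes to the induction of Egr2 and Egr3 in T cells. In Treg, which meet self antigen often, NR4A receptors are known to help maintain the lineage.

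The 250 bases before the start are shown for 3 of the 4 genes that were low together in 1 array (Nr4a1, Egr2 and Fos) and for Atf3 and Maff, the remaining pair with a correlation of at least 0.7. The sequences are RefSeq's, build GRCm38.p6, read 5′ to 3′ on the gene's strand, and 7 of the 9 genes were matched. Egr3 and Myc were not. Capitals mark matches on either strand to the CRE core TGACG, the full CRE TGACGTCA (which contains that core on both strands), the EGR site GCGNGGGCG, the AP-1 site TGANTCA and the CArG box. Egr2 has 5 start sites in the table and Maff 3, and the window with the most matching bases was taken, the first by position among equals.
Nr4a1 promoter: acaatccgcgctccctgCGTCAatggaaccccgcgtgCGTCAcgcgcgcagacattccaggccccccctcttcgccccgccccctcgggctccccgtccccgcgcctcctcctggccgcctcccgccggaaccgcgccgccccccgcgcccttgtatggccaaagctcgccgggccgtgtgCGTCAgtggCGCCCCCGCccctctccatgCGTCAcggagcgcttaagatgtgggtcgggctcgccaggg
Egr2 promoter: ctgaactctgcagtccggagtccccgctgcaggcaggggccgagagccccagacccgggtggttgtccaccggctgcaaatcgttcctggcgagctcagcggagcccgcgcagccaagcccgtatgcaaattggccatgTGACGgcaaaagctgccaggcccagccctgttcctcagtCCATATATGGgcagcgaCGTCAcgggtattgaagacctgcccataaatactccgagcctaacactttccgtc
Fos promoter: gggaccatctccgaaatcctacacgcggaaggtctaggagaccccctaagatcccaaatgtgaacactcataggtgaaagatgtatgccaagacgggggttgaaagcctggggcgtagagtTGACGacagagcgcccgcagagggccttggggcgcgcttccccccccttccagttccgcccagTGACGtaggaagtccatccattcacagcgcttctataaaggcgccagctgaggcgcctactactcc
Atf3 promoter: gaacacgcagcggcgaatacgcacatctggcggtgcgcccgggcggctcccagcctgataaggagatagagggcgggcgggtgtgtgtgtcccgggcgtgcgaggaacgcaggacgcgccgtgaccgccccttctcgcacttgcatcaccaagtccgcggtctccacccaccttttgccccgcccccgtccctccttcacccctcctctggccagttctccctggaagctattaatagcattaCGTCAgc
Maff promoter: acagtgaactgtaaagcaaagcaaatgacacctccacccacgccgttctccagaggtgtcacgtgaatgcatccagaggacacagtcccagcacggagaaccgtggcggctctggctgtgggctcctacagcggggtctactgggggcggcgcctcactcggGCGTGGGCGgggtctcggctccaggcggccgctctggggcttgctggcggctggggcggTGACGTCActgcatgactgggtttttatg
These windows are chr15:101266596-101266845 (+) for Nr4a1, chr10:67537619-67537868 (+) for Egr2, chr12:85473640-85473889 (+) for Fos, chr1:191183334-191183583 (-) for Atf3 and chr15:79347270-79347519 (+) for Maff.

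Of the motifs searched, the CRE core was found in the most of these genes. It was found in 9 of the 15 windows of these genes, against 17.8% of all 32851 windows of that length. Some of the Egr2 windows overlap, so the same cores are counted more than once. By gene, 6 of the 7 matched had it in at least 1 window, the exception being Ier5. A gene with several windows has more chances of a match, and no share by gene was computed over all genes. The Nr4a1 window held 4 cores and 1 EGR site. The Egr2 window held 2 cores on either side of a CArG box, which 1.47% of all windows held. The Fos window held 2 cores, and the Atf3 window held 1 that lay 7 bases before the start. The Maff window held a full CRE, which 1.55% of all windows held, and an EGR site, which 4.70% held. Of the 15 windows of these genes, 1 held a full CRE, 2 an EGR site and 4, all of Egr2, a CArG box. Bases outside these windows were not searched. A gene without a match, as Fos for the CArG box, may hold one outside its window. The Egr2 and Maff windows were picked for their matches, so the shares over all windows are not a like measure for them. The AP-1 letters were found in 0 of the 15 windows of these genes, against 6.75% of all windows. A match of letters is a description, and no binding was measured.

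Nr4a1, Egr2, Egr3, Fos, Atf3, Jdp2, Maff, Ier5 and Myc did not pass the test between the genotypes. The test was limma's, a moderated linear model over all 6986 genes with Benjamini-Hochberg adjustment at 0.05 (adjusted p = 0.999 for each). By that rule 0.0286% of all genes tested passed, that is 2 genes, both higher in Il10-/- (1 to 4 genes with one array left out). At an unadjusted p under 0.05 limma counted 0 of the 9, against 4.78% of all genes. The groups overlapped for every one of the 9, and 2.92% of all genes had groups without overlap. With 4 arrays a side the 95% intervals of the differences still reach as low as -0.86 (Nr4a1) and as high as 0.51 log2 units (Egr3). Others were narrower, and that of Myc ran from -0.28 to 0.12. For each gene, a change within its own interval is not shown to be absent. In bulk RNA, fewer responding cells and less RNA in each cannot be told apart.

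The orphan nuclear receptors of the NR4A family and the EGR zinc finger factors are the classic reporters of receptor signal strength in T cells. Nr4a1, which encodes Nur77, read 9.60, 8.47, 9.35 and 9.45 in Il10-/- replicates 1 to 4 and 9.85, 9.37, 9.82 and 8.79 in Il10+/+ replicates 1 to 4. The 2 low values were those of Il10-/- replicate 2 and Il10+/+ replicate 4, and the remaining arrays of both groups overlapped. The difference, Il10-/- minus Il10+/+, was -0.24 (SE 0.28), from means of 9.22 ± 0.51 and 9.46 ± 0.50 (SD, n = 4 each). An exact permutation test, two-sided and over all 70 ways to divide the arrays, gave p = 0.486 for Nr4a1.

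Egr2, a zinc finger factor that restrains T cell activation, read 9.79, 8.80, 9.48 and 9.69 in Il10-/- and 9.90, 9.54, 9.69 and 9.72 in Il10+/+. One array, Il10-/- replicate 2, lay apart below, and the other 7 ran from 9.48 to 9.90. The difference was -0.27 (SE 0.19; means 9.44 ± 0.44 and 9.71 ± 0.15, SD, n = 4 each; exact permutation p = 0.371). Its close relative Egr3 read 8.42, 7.42, 8.10 and 7.95 in Il10-/- and 8.08, 7.87, 7.94 and 7.64 in Il10+/+. Il10-/- held both the highest and the lowest Egr3 value. Egr3 was the only one of the 9 with a positive difference, 0.091 (SE 0.19; exact permutation p = 0.657).

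Fos, a subunit of the AP-1 factor, is induced within minutes through serum response factor and CRE-binding proteins. It read 7.44, 6.51, 7.73 and 7.71 in Il10-/- and 7.79, 7.73, 7.56 and 7.31 in Il10+/+. The value of Il10-/- replicate 2 lay below all others, and the next lowest was Il10+/+ replicate 4. The difference was -0.25 (SE 0.24; means 7.35 ± 0.57 and 7.60 ± 0.21, SD, n = 4 each; exact permutation p = 0.571).

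**Figure D1:**
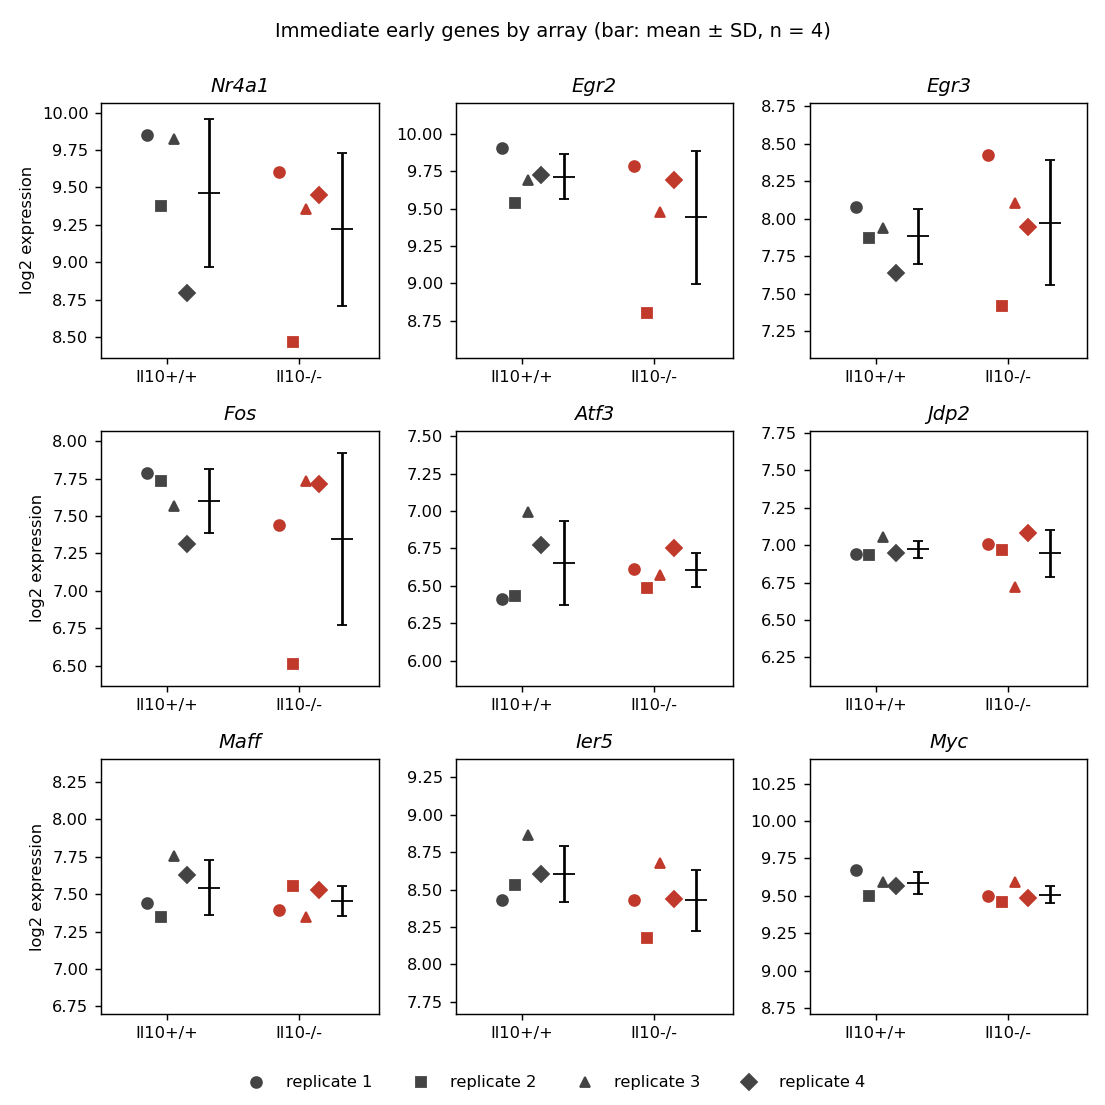
Log2 expression of the 9 genes in each array, by genotype label, with one symbol per replicate number and a bar for the mean ± SD of 4 arrays; every panel spans the same height on the log2 axis. Il10-/- replicate 2 (red square) is the lowest point for Nr4a1, Egr2, Egr3 and Fos, and the groups overlap in all panels.

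The remaining leucine zipper factors spanned less between the highest and the lowest array, 0.58 for Atf3, 0.36 for Jdp2 and 0.40 for Maff, where Nr4a1 spanned 1.38 and Fos 1.28. Atf3, a stress-induced repressor of the CREB family, read 6.61, 6.49, 6.57 and 6.76 in Il10-/- and 6.42, 6.43, 6.99 and 6.77 in Il10+/+. Both the lowest and the highest Atf3 values lay in Il10+/+, and the difference was -0.047 (SE 0.14; exact permutation p = 0.771). Jdp2, a repressor that pairs with Jun, read 7.01, 6.97, 6.72 and 7.08 against 6.94, 6.94, 7.06 and 6.95, a difference of -0.026 (SE 0.10; exact permutation p = 0.857).

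Fos and Jdp2 are neighbours on chromosome 12, with 2 unnamed gene models between them in RefSeq. Over the 8 arrays the neighbours correlated at r = -0.14 (exact permutation p = 0.642) and rho = -0.45 (exact permutation p = 0.267). The correlation without the arrays farthest from the Fos median, Il10-/- replicate 2 and Il10+/+ replicate 4, was -0.41.

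Maff encodes a small Maf protein, which has no activation domain of its own. It read 7.40, 7.56, 7.35 and 7.53 in Il10-/- and 7.44, 7.35, 7.75 and 7.63 in Il10+/+. All 4 Il10-/- values lay within the range of the other group, and the difference was -0.086 (SE 0.11; exact permutation p = 0.457). Ier5, a regulator of heat shock factor and of phosphatase PP2A, read 8.43, 8.18, 8.68 and 8.44 against 8.43, 8.53, 8.87 and 8.60. Its lowest value was again in Il10-/- replicate 2, and the difference was -0.18 (SE 0.13; exact permutation p = 0.286).

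Myc drives growth and division after activation. It read 9.50, 9.46, 9.59 and 9.48 in Il10-/- and 9.68, 9.50, 9.59 and 9.57 in Il10+/+, so all 8 arrays lay within 0.22 log2 units of each other. The difference was -0.076 (SE 0.091, 95% interval -0.28 to 0.12; exact permutation p = 0.143). Its standard deviation within groups was 0.066, and only 1.82% of the genes tested varied less. Nr4a1 and Fos were at the opposite end, with within-group standard deviations of 0.50 and 0.43, above those of 97.9% and 96.2% of genes. Egr2 and Egr3 followed at 0.33 and 0.32, above 89.2% and 88.3% of genes.

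The low readings gathered in 1 pool. Il10-/- replicate 2 was the lowest of the 8 arrays for 6 of the 9 genes, Nr4a1, Egr2, Egr3, Fos, Ier5 and Myc, where it was the lowest for 13.4% of all genes tested. This was not particular to the 9. Of the lists described below, it was the lowest for 8 of 16 signalling genes and 6 of 12 EGR or NR4A response genes. For MYC partners and MYC targets the counts were 3 of 5 and 8 of 20. Leucine zipper factors gave 1 of 10 and heat shock genes 0 of 5. Against the mean of the other 3 Il10-/- arrays, Il10-/- replicate 2 stood at -1.11 for Fos, -0.999 for Nr4a1, -0.85 for Egr2 and -0.74 for Egr3. Only 0.415%, 0.787%, 1.49% and 2.18% of all genes lay lower by that measure. Jdp2 and Maff were not low there, at 0.033 and 0.13, Myc stood at -0.064 and Atf3 at -0.16. Il10+/+ replicate 4, the other array with a narrow spread, stood at -0.89 for Nr4a1, -0.38 for Fos and -0.33 for Egr3 against the other 3 Il10+/+ arrays, but at 0.010 for Egr2.

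**Figure D2:**
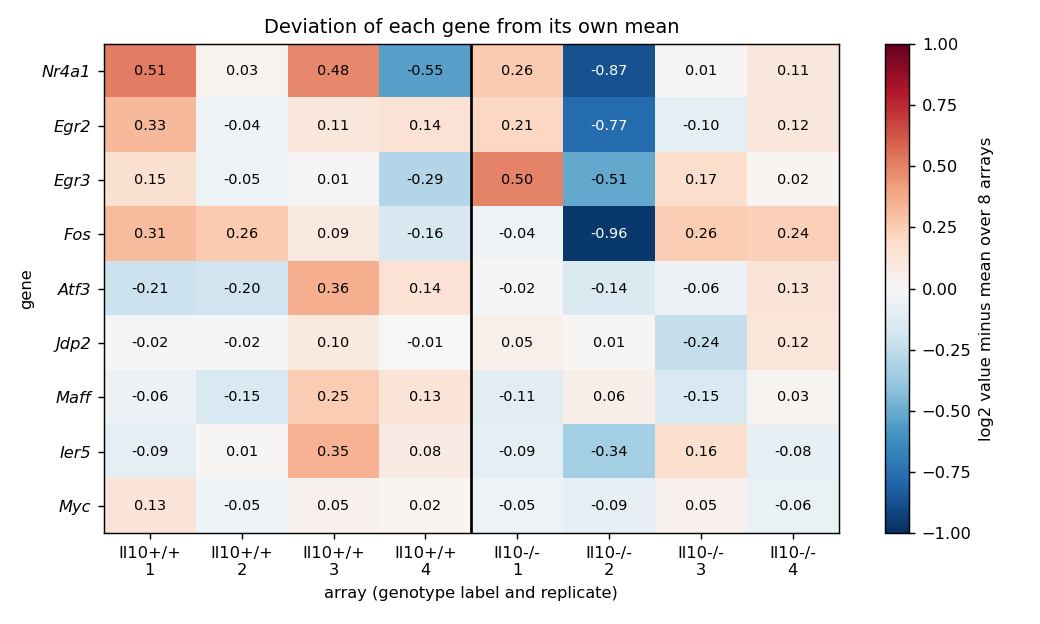
Log2 value of each gene minus its own mean over the 8 arrays, with genes in rows and arrays in columns; red is above and blue below the mean. The blue column of Il10-/- replicate 2 reaches -0.96 for Fos and -0.87 for Nr4a1, while Jdp2 and Maff there are at 0.012 and 0.057.

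Leaving out Il10-/- replicate 2 brought the differences of Nr4a1 and Fos to slightly above 0, while Egr2, Ier5 and Myc, also lowest in it, stayed negative. Nr4a1 then differed by 0.0086 (SE 0.23), Fos by 0.027 (SE 0.14) and Egr2 by -0.061 (SE 0.12), and Egr3 differed by 0.28 (SE 0.15, 95% interval -0.054 to 0.60; limma, adjusted p = 0.986). With all arrays 8 of the 9 differences were negative, against 49.2% of all genes. Without that array 6 of 9 were, against 52.1% of all genes, and their median went from -0.086 to -0.034, where all genes went from 0.0025 to -0.0064. Without Il10+/+ replicate 4, Nr4a1 differed by -0.46. Without both of these arrays it differed by -0.21, Fos by -0.069 and Egr3 by 0.19, and 7 of 9 were negative (48.3% of all genes).

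**Figure D3:**
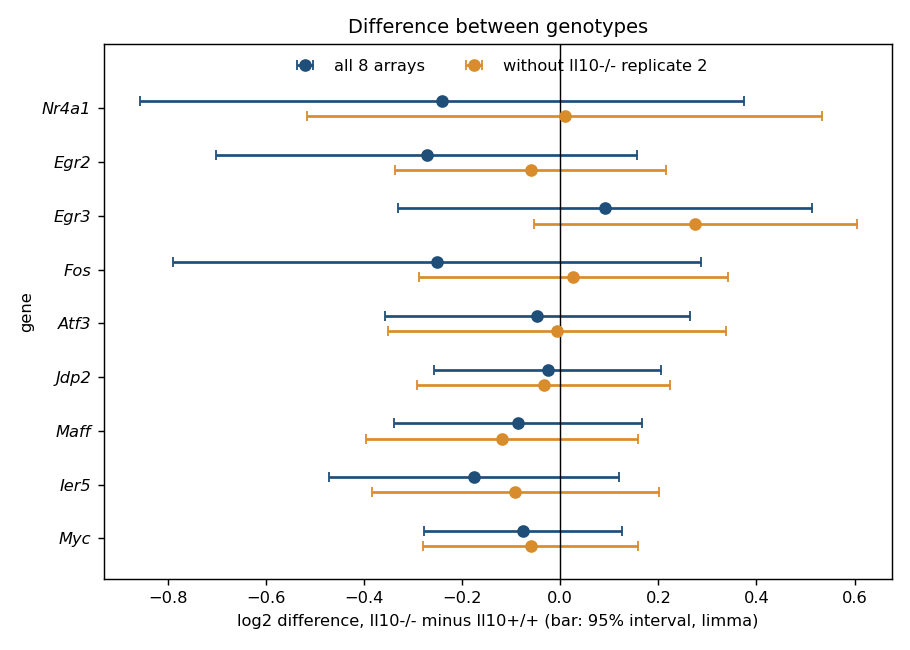
Log2 difference between genotypes (Il10-/- minus Il10+/+) with its 95% interval from limma, for all 8 arrays (blue) and without Il10-/- replicate 2 (orange). Every interval spans 0 in both fits, and the points of Nr4a1 and Fos move from -0.24 and -0.25 to 0.0086 and 0.027.

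The cell markers measured in the same pools moved with it in part. Levels were summed before the log2 was taken, so each sum mostly follows its brightest genes. Il10-/- replicate 2 had the lowest sum over the 5 measured T cell and Treg markers, a log2 sum of 13.52. The other Il10-/- arrays reached 13.75 and Il10+/+ ran from 13.71 to 13.81. That array was the lowest for 3 of the 5 markers. Themis went the other way and was highest there, at 9.72 against 9.23 to 9.69 in the others. The brightest of the 5 is Ptprc, which other white blood cells also express. The sum is therefore not a measure of the T cell share. Il10-/- replicate 2 also had the lowest sum over 7 B cell markers, 11.96. The other Il10-/- arrays went up to 12.68 and Il10+/+ ran from 12.01 to 12.52. That sum mostly follows Ighm, the brightest of the 7. Gene by gene, the array was the lowest for only 1 of the 7 (14.3%, against 13.4% of all genes). The sum therefore does not show that the B cell markers were low there as a set. The sum of Il10-/- replicate 2 over 6 myeloid and dendritic cell markers was the highest, 10.48. The lowest Il10-/- array was at 9.92 and Il10+/+ ran from 10.01 to 10.37. These markers did not all move together. Fcgr3 correlated at r = -0.88 with the mean of the 9 early genes, but Cxcr2 at -0.36, Lyz1 at -0.15 and Fcer1g at 0.19. The sum therefore does not show that the myeloid markers were high as a set in Il10-/- replicate 2. The 3 NK and CD8 T cell markers (8.90 to 9.12 in Il10-/- and 8.78 to 9.28 in Il10+/+) and the 6 stroma and endothelium markers (10.25 to 10.46 and 10.28 to 10.57) placed it within or near the other arrays. The dimmest markers of these lists were Themis, Cr2, Lyz1, Gzmk and Lum, and Lum read 4.29 to 4.93. The part of cell makeup and of the narrow array spread in the low readings was not tested. After quantile normalization, which gives all arrays the same spread, the difference between genotypes was -0.27 for Nr4a1 and -0.27 for Fos. These are differences of groups that each hold a narrow array. They do not measure how low Il10-/- replicate 2 read after that step.

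Covariation between the genes followed the same array. Over the 8 arrays, 5 of the 36 pairs had a Pearson correlation of at least 0.7, where 4.92% of all 24398605 pairs of genes did, and the median was 0.30 against 0.025 over all pairs. Nr4a1 correlated with Fos at r = 0.81 (exact permutation p = 0.0167; rho = 0.57, p = 0.151), with Egr3 at r = 0.80 (exact permutation p = 0.0180; rho = 0.60, p = 0.132) and with Egr2 at r = 0.77 (exact permutation p = 0.0261; rho = 0.67, p = 0.0831). Egr2 correlated with Fos at r = 0.81 (exact permutation p = 0.0832; rho = 0.24, p = 0.582). The last of the 5 pairs was Atf3 with Maff, at r = 0.79 (exact permutation p = 0.0188; rho = 0.67, p = 0.0831). After Benjamini-Hochberg adjustment over the 36 pairs 0 passed, with 0.226 the smallest adjusted p for r and 0.544 for rho, and 4 had an unadjusted p under 0.05 for r. Ier5 and Myc, at r = 0.50 over the 8 arrays, passed when Il10+/+ replicate 1 was left out (r = 0.91, exact permutation p = 0.000397, adjusted p = 0.0143).

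Most of these correlations rested on a pair of arrays. Without the 2 arrays farthest from the median of Nr4a1, Il10-/- replicate 2 and Il10+/+ replicate 4, the correlation of Nr4a1 was -0.21 with Fos and 0.13 with Egr3, but 0.81 with Egr2. Without the farthest for Egr2, Il10-/- replicates 2 and 3, Egr2 and Fos stood at -0.022. Without Il10-/- replicate 2 alone, 1 of the 36 pairs reached 0.7, where 5.97% of all pairs of genes did, and the median over the pairs was 0.086, and Nr4a1 and Egr2 stood at 0.37. Without both arrays with a narrow spread 2 of the 36 pairs reached 0.7, where 7.26% of all pairs did. The pair left without Il10-/- replicate 2 was Atf3 with Maff, at 0.89, and it in turn rested on Il10+/+ replicates 3 and 4, without which it stood at 0.28.

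**Figure D4:**
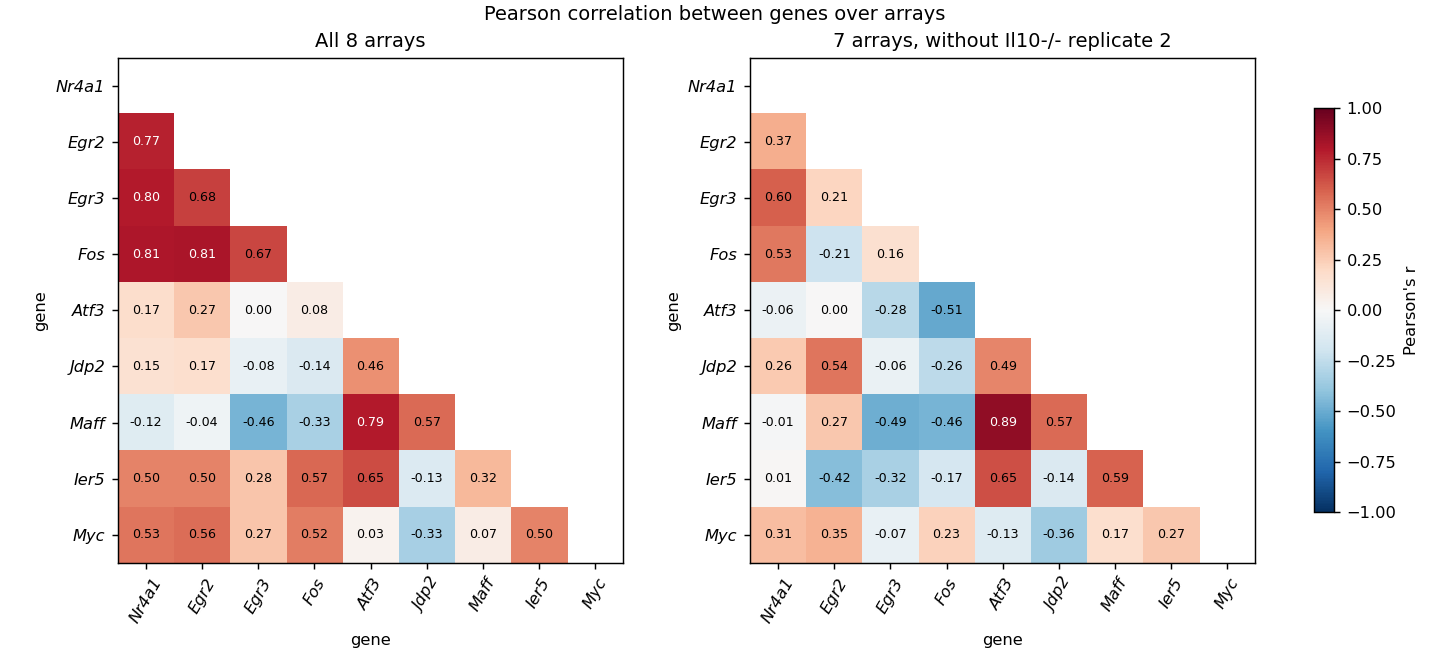
Pearson's r for each of the 36 pairs of genes, over all 8 arrays (left) and over the 7 arrays without Il10-/- replicate 2 (right); red is positive and blue negative. The block of Nr4a1, Egr2, Egr3 and Fos reads 0.67 to 0.81 on the left and -0.21 to 0.60 on the right.

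The genes whose pattern was most like the mean of the 9, each centred on its own mean, were named by Pearson's r over the 8 arrays, as a description. They were Tmc8 (0.97), Ikzf4 (0.97), Dnajc14 (0.97), Dus1l (0.97), Mnt (0.96), Itgb2 (0.96), Zfp36l1 (0.96), Olfr798 (0.95), Stat6 (0.94) and Tbxa2r (0.94). The 9 were not scaled, so their mean mostly follows those that varied most. Among the 9, the lowest correlations with that mean were those of Maff (0.049), Jdp2 (0.17) and Atf3 (0.43). Zfp36l1, an RNA-binding protein that shortens the life of short-lived messages, read 9.68 in Il10-/- replicate 2 and 10.52 to 11.28 in the other arrays. Ikzf4, the Treg factor Eos, read 8.65 there and 8.97 to 9.37 elsewhere. Olfr798 read 2.63 to 3.02, near the lowest value of any gene (2.37 to 2.43 per array). Most unlike were Lgalsl (-0.98), Krtap31-2 (-0.97), Skap1 (-0.94), Olfr1380 (-0.93) and Pcmtd1 (-0.93). Skap1, an adaptor of T cell receptor signalling to integrins, read 10.51 in Il10-/- replicate 2 and 9.96 to 10.19 elsewhere. Without that array the 10 correlations ran from 0.77 to 0.88 and the 5 from -0.91 to -0.72. The genes had been picked as the extremes over arrays that include these, so the values are no separate check of a shared pattern.

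Genes of the same response outside the 9 were described from lists, of which the array table held a part. Of 24 measured other early response genes 0 passed limma's adjusted threshold, 1 had an unadjusted p under 0.05, and 19 were negative with a median of -0.070. Without Il10-/- replicate 2 the negative ones were 12 of 24 with a median of -0.015, and without both narrow arrays 19 of 24. That array was the lowest for 10 of the 24. Trib1, a scaffold for protein degradation, differed by -0.25 (SE 0.11), the NF-kappaB inhibitor Tnfaip3 by -0.32 (SE 0.16) and Rgs1, which damps chemokine receptor signals, by 0.20 (SE 0.11). Of 10 measured leucine zipper factors of the AP-1, CREB and Maf families, 0 passed and 6 were positive. Batf3 differed by 0.28 (SE 0.13), Atf4 by -0.15 (SE 0.13) and Atf6 by 0.19 (SE 0.19).

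Upstream of the early genes, 16 measured members of the MAP kinase, SRF and calcineurin pathways split into 8 positive and 8 negative, with 0 past the adjusted threshold and 2 at an unadjusted p under 0.05. The kinase gene Map2k6 differed by 0.34 (SE 0.13), the SRF partner Elk3 by -0.31 (SE 0.14) and the adaptor Grap2 by -0.25 (SE 0.12). Grap2 was the only 1 of the 16 with groups without overlap, where 2.92% of all genes had such groups. Without Il10-/- replicate 2, 5 of the 16 were negative, and without both narrow arrays 7. Downstream, of 12 measured EGR corepressors and EGR or NR4A response genes, 0 passed and 8 were negative, with 5 negative without that array and 7 without both. Cd83, an activation marker, differed by -0.23 (SE 0.15), the costimulator Icos by 0.13 (SE 0.10) and Dgka, a diacylglycerol kinase induced by EGR2, by -0.15 (SE 0.12).

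The network of Myc also stayed below the threshold. Of 5 measured partners and antagonists 0 passed and 4 were negative, with 2 negative without Il10-/- replicate 2 and 3 without both narrow arrays. The repressor Mnt differed by -0.32 (SE 0.18), Mycn by 0.14 (SE 0.10) and Mlx by -0.20 (SE 0.23). Of 20 measured MYC targets of growth and ribosome making 0 passed and 12 were positive, with a median of 0.034. The chaperonin genes Hspe1 and Hspd1, which share a promoter, differed by 0.30 (SE 0.14) and 0.19 (SE 0.11), and Bop1 by 0.21 (SE 0.15).

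Heat shock genes, which encode chaperones and their regulators, were measured for 5 of 18 members. All 5 were positive, where 50.8% of all genes were, and their median was 0.21. By limma 2 had an unadjusted p under 0.05, against 4.78% of all genes. None passed over all genes. The factor gene Hsf2 differed by 0.50 (SE 0.11; limma, adjusted p = 0.405), Dnajb9 by 0.43 (SE 0.17; adjusted p = 0.874) and Hsp90aa1 by 0.17 (SE 0.10). Hsf2 and Dnajb9 had groups without overlap, as had 2.92% of all genes. Il10-/- replicate 2 was the lowest array for 0 of these 5, against 13.4% of all genes.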

How the data were processed

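The deposited values are log2 expression made by the authors in Partek Genomics Suite, with background correction by RMA, correction for GC content and averaging over probes, per the labels and design text; Affymetrix Expression Console is also named, per the submitters' processing notes. Program versions and the probe sets' genome build: not given in the sources used here. Of 16378 probe sets, 7358 had 1 gene symbol, 456 several and 8564 none. Symbols were updated by Entrez identifier to RefSeq (7310 matched), and the probe set with the highest mean was kept for each of 6986 genes, without a filter. Of the genes placed, 99.6% lay on chromosomes 1 and 10 to 15, so lists were measured in part.

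Differences were fitted with limma 3.58.1 (lmFit, eBayes) in R 4.3.3 over all genes, without a block, and the fit was tested on simulated data. Correlations used exact permutation of the 8 arrays. The members and lists were chosen with earlier results of these data known. The text names all 9 members, the 3 genes of smallest p in each list (none was called), and the 10 genes most like and 5 most unlike the members, leaving out unnamed models and gene segments; other genes were chosen after their values were seen. Of 28 pairs of arrays 0 were identical. Deviations of same-numbered arrays correlated at -0.32 to 0.05, so no pairing by replicate number was seen. A weak pairing could be hidden by the larger differences between arrays. Alternatives were other normalizations, probe set rules, a filter on dim genes, all probe sets, other variance settings, array weights, a replicate block and left-out arrays.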

Additional observations from a re-analysis of the deposited data

Results flagged for a closer look

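Jdp2 read 7.06 in Il10+/+ replicate 3, far above the other 3 arrays of that group relative to their range (6.94, 6.94 and 6.95). Such a gap is met by chance in about 1 in 20 groups, 18 groups of 4 were looked at, and the value lies below the highest of Il10-/-, 7.08.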

How the results depend on the processing

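All of the 9 genes stayed above the adjusted threshold in all alternatives run (0 called), as did the pathway lists (0 called). The number of genes called over the whole table was 2, and 1 with median centring, all probe sets, array weights, the replicate block or without both Il10-/- replicate 2 and Il10+/+ replicate 4, and 1 to 4 with one array left out. With trend and robust settings it was 3. With the replicate block, for which the correlations of same-numbered arrays gave no ground, Nr4a1 differed by -0.24 and no call among the 9 changed. Signs turned for Atf3 (0.033 without both arrays) and, with one array left out, for Nr4a1 (range -0.46 to 0.0086), Fos (-0.38 to 0.027), Egr3 (-0.060 to 0.28), Atf3 (-0.13 to 0.067) and Jdp2 (-0.071 to 0.048). Egr2, Maff, Ier5 and Myc stayed negative in all alternatives run. Pairs with r of at least 0.7 numbered 5, but 9 with median centring, 2 without both arrays and 1 to 8 with one left out (1 without Il10-/- replicate 2, 8 without Il10-/- replicate 3). Pairs past the adjusted threshold numbered 0, or 0 to 1 with one array left out (1 without Il10+/+ replicate 1). The correlation of Egr2 and Fos ran from -0.21 to 0.88 with one array left out and was -0.19 without both; that of Nr4a1 and Fos was -0.21 without both. After quantile normalization Atf3 and Maff stood at 0.50. The cause was not tested. With 4 pools a group, the number of arrays limits the precision.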
